A study of Mus musculus with 12 samples.

Results

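The nucleolar ribosome biogenesis genes examined here encode proteins that transcribe ribosomal DNA, modify and cut the ribosomal RNA precursor and assemble the subunits of the ribosome. A gene was included when a row of the array table carried its symbol and no other symbol, and the row with the highest mean over the 12 arrays was used where a gene had several. Of 36 listed genes, 35 were measured, out of 19938 genes with such a row. Noc2l, a large subunit factor, had no row with its symbol alone. Total RNA had been taken from the Min6 line, which derives from a mouse insulinoma, secretes insulin and serves as a model of pancreatic beta cells. The cultures were grown for 3 successive periods of 5 days. Cells in classic conditions (CC) stayed in medium with 15% fetal calf serum at 20% oxygen throughout. Cells in defined conditions (DC) spent the last 10 days without serum at 5% oxygen, with apo-transferrin, progesterone, putrescine and selenite added. Cells in the return condition (RC) had 5 serum-free days at 5% oxygen and then 5 days in serum at 20% oxygen again. Each condition has 4 arrays, and all 12 come from 1 line in a single experiment, so p-values measure only the spread between these cultures, which may be technical. Serum, oxygen and supplements changed together, and RC differs from DC in the length of the serum-free exposure as well, so their parts cannot be told apart.

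Ribosome production starts in the nucleolus, where RNA polymerase I copies the ribosomal DNA into a long precursor. Small nucleolar ribonucleoproteins guide 2′-O-methylation (box C/D type) and pseudouridylation (box H/ACA type) of that precursor, and separate sets of factors cut and fold the parts that become the small and the large subunit. The process uses much of a growing cell's resources, and these genes are known to follow nutrient supply, growth factors and proliferation. Many of them are known targets of Myc, which binds the E-box CACGTG in promoters.

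Promoter sequences were compared for the 30 members that RefSeq lists with one on assembly GRCm38.p6 (250 bases before to 50 after the gene start). The E-box CACGTG, which reads the same on both strands, was in 8 of them (26.7%), against 8.09% of 27025 genes and 9.5% of genes with a GC content at least that of the lowest member. The 8 were Imp4, Mybbp1a, Nop2, Pes1, Rrn3, Utp20, Utp4 and Wdr43. The ETS-type motif CCGGAAG, on either strand, was also in 8 (Ebna1bp2, Gar1, Nhp2, Nip7, Nolc1, Nop2, Rrn3 and Utp4), against 9.93% of genes and 12.6% of those at or above the same GC cut. No match of one motif overlapped a match of the other. The promoters of the members were richer in GC (median 58.8%, against 52.8%). The cut at the lowest member (45.3%) does not match the genes to the members in GC. The windows below lie upstream of the gene start and show the E-box of Imp4, Nop2 and Rrn3 in capitals, 5′ to 3′ on the plus strand, because these 3 genes have it in that stretch. Rrn3 has it in 2 places.
Imp4 (chr1:34439696-34439725): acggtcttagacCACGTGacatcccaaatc
Nop2 (chr6:125131811-125131840): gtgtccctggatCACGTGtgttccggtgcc
Rrn3, distal (chr16:13780472-13780501): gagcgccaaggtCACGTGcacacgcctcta
Rrn3, proximal (chr16:13780639-13780668): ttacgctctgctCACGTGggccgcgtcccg
A match of letters is a description and not a bound site.

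The members were mostly well above the middle of the array's scale. Their means over the 12 arrays had a median of 9.24 on the log2 scale and ran from 6.71 for Rrs1 to 11.54 for Nop56, and 33 of the 35 lay above the median of all values, 7.99. Ins2 (12-array mean 13.03) and Iapp (13.82), both beta cell products, were near the top of the scale, and 8 of 9 measured beta cell markers lay above the median of all values. Of these 9, 1 passed the test (against 6.64% of all rows in DC minus CC and 2.63% in RC minus DC), the granule zinc transporter Slc30a8. It rose by 0.31 ± 0.08 in DC against CC (adjusted p = 0.040, lost in 9 of 12 fits without 1 array) and fell by 0.45 ± 0.08 in RC against DC (adjusted p = 0.0092, both by limma). Of markers of other cell types, 2 of 5 fibroblast, 0 of 4 endothelial, 2 of 4 immune and 0 of 3 exocrine genes lay above it, and none of these passed the test in any comparison. All of them were above 0 in DC minus CC, with list medians of 0.16, 0.16, 0.17 and 0.14 in this order, against 0.04 over all rows, and 2 of the 4 endothelial genes had an unadjusted p under 0.05. The endothelial and exocrine markers were dim, with 12-array means of 6.87 to 7.97. Rows of such levels were mostly above 0 as well. With rows ranked by 12-array mean into 5 classes of equal size, the median was 0.11 in the second class (6.35 to 7.53). It was 0.10 in the third (7.53 to 8.49). The summed log2 levels of the fibroblast markers on single arrays ran from 35.92 to 36.79 in CC, 36.22 to 37.78 in DC and 36.1 to 37.95 in RC. For the immune list the sums ran from 29.8 to 30.43 in CC, 30.29 to 30.97 in DC and 30.2 to 31.32 in RC. The endothelial sums were 27.75 to 28.31, 28.12 to 28.97 and 27.99 to 28.98, and the exocrine sums 21.88 to 22.35, 21.81 to 22.95 and 21.72 to 23.16. The part of these markers in the results below was not tested.

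The arrays differed within conditions, and the members differed with them. The mean over the 35 genes was 9.42, 9.39, 9.22 and 9.22 on CC 1 to CC 4, 9.29, 9.06, 9.17 and 9.02 on DC 1 to DC 4, and 9.35, 9.31, 9.23 and 9.35 on RC 1 to RC 4. The interquartile range of all rows on the array, a measure of how wide the values spread, was 2.73, 2.75, 2.58 and 2.57 in CC, 2.64, 2.47, 2.60 and 2.44 in DC, and 2.65, 2.58, 2.42 and 2.65 in RC. The arrays with the widest spread, CC 1 and CC 2, had the highest member means, and DC 4 and DC 2, among the 3 narrowest, had the lowest. The mean of CC 1 and CC 2 exceeded that of CC 3 and CC 4 for 33 of the 35 genes, by a median of 0.20, against a median of -0.03 over all rows, of which 43.2% were higher. This gap inside CC was larger than the difference between DC and CC for 16 of the 35 genes (45.7%), a share below that of all rows (51.3%). RC 3 correlated less with its group (mean correlation 0.976 over all rows, against 0.989 to 0.990), and its interquartile range was the narrowest of all. What sets these arrays apart was not tested, and counts with and without them are given below.

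**Figure D1:**
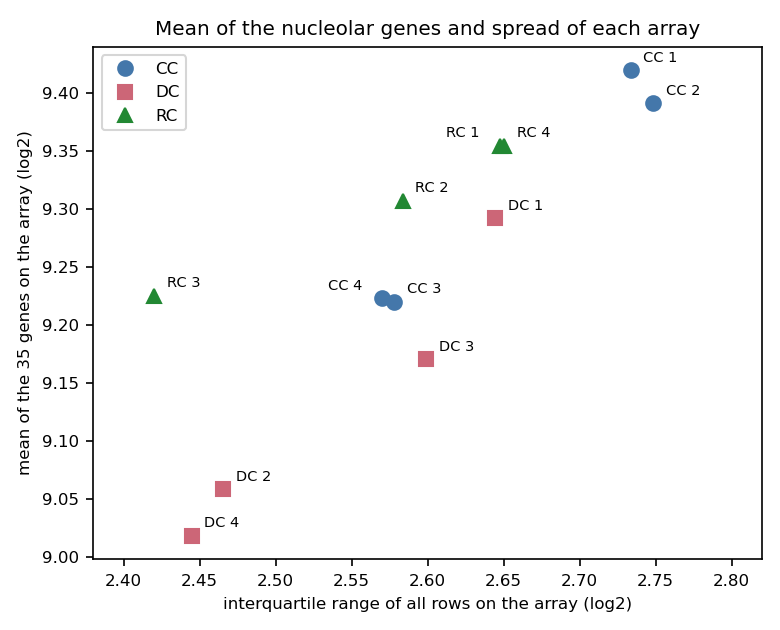
Mean log2 value of the 35 nucleolar genes on each array (vertical axis) against the interquartile range of all rows on that array (horizontal axis, log2), with 1 point for each of the 12 arrays and the condition as colour and shape. CC 1 and CC 2 lie at the upper right (means 9.42 and 9.39), DC 2 and DC 4 at the lower left (9.06 and 9.02), and RC 3 has the narrowest range (2.42) with a mean of 9.23.

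Levels of the 35 genes were mostly lower in DC than in CC, by small amounts, and 2 of them passed the test. Nop56, a core protein of box C/D particles, fell by 0.27 ± 0.05 on the log2 scale (moderated standard error; adjusted p = 0.0065 by limma with Benjamini-Hochberg adjustment), which is 1.20-fold. Bop1, a scaffold of the PeBoW complex that matures the large subunit, fell by 0.43 ± 0.09 (adjusted p = 0.014), which is 1.35-fold. No member rose. Of all 35556 rows, 6.64% passed the test, 4.32% lower and 2.31% higher, so the 2 lower members (5.71%) are a share near the background. The median difference of the members was -0.16, against 0.04 over all rows, and 32 of 35 members (91.4%) were below 0, against 39.7% of rows. At an unadjusted p under 0.05 there were 16 members (45.7%, against 20.6% of rows). The groups did not overlap, with every DC array below every CC array, for 6 members, Nop56, Utp4, Rrp12, Bop1, Wdr12 and Ddx18, or 17.1% against 7.96% of rows.

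Highly expressed rows were more often below 0 than above it in DC minus CC. When rows were ranked by their 12-array mean into 5 classes of equal size, the top class held 12 members and the next 16, where the median DC minus CC difference of all rows was -0.06 and -0.02 and that of the members -0.20 and -0.14. In those classes 61.7% and 55.4% of rows were below 0. The test was passed by 15.7% and 10.1% of rows in either direction, and by 11.6% and 6.4% as lower. The member median moved with the arrays as well. It was -0.08 with CC 1 and CC 2 left out, -0.26 with CC 3 and CC 4 left out, and -0.06 when the interquartile range entered as a covariate, with 28, 33 and 28 of the 35 members below 0.

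After the return to serum and 20% oxygen the levels were mostly above those in DC, and no member passed the test (0 of 35, against 2.63% of rows, which is 1.45% higher and 1.18% lower). The median RC minus DC difference was 0.17, against -0.01 over all rows, and 33 of 35 members were above 0, against 45.2% of rows. At an unadjusted p under 0.05 there were 12 members, against 11.8% of rows. Every RC array exceeded every DC array for 4 members, Dkc1, Nhp2, Rrp12 and Wdr12, or 11.4% against 3.06% of rows. The smallest adjusted p-values by limma were 0.114 for Wdr12 (difference 0.26 ± 0.07), 0.136 for Polr1a (0.22 ± 0.07) and 0.14 for Rrp12 (0.21 ± 0.06). The count depended on the arrays. It was 5 without RC 3 (14.3%, against 5.57% of rows higher), namely Ncl, Npm1, Gnl3, Nop58 and Wdr12, and 3 without DC 1, namely Nolc1, Polr1a and Bop1 (8.57%, against 1.85% of rows). With limma's array weights it was 17 (48.6%, against 10.6% of rows).

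Between RC and CC no member passed the test (0 of 35, against 0.796% of rows, which is 0.121% higher and 0.675% lower), 1 had an unadjusted p under 0.05 (against 9.06% of rows), and the array weights gave 4 higher (11.4%, against 4.15% of rows) and 1 lower (2.86%, against 3.77% of rows). The median difference was -0.01, against 0.03 over all rows, with 18 members below 0 (51.4%, against 38.4% of rows) and 17 above. Among highly expressed rows the background was different. In the top level class and the next, with 12 and 16 members, 57.2% and 55.6% of rows were below 0. The medians there were -0.02 and -0.02 over all rows and -0.01 and -0.02 over the members. The split of the members into 18 and 17 depended on the CC arrays. Without CC 1 and CC 2 the median was 0.09 with 6 members below 0, without CC 3 and CC 4 it was -0.08 with 28 below 0, and when the interquartile range entered as a covariate it was 0.05 with 9 below 0. Nop56 and Bop1 were the members whose RC arrays all lay below all CC arrays (5.71%, against 5.45% of rows). The 3 comparisons share arrays, so they are not independent of each other, and the values of each are given side by side.

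**Figure D2:**
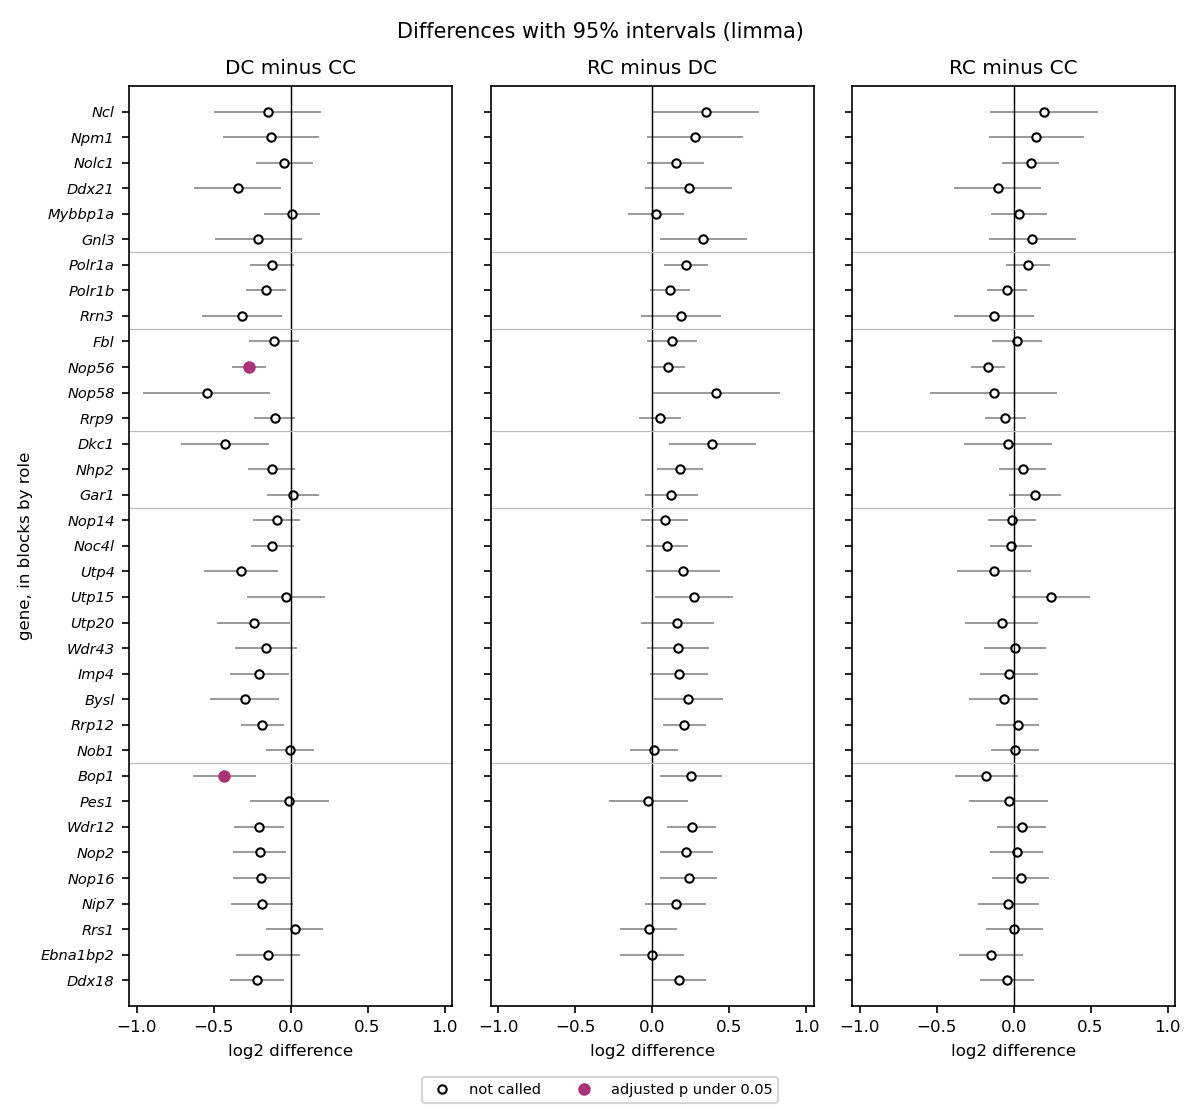
Log2 difference of each of the 35 genes (1 row per gene, in blocks by role) in DC minus CC, RC minus DC and RC minus CC, with the 95% interval from limma as a grey line. Filled points mark an adjusted p under 0.05, which are Nop56 and Bop1 in DC minus CC. Most points lie left of 0 in the first panel and right of 0 in the second.

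The abundant nucleolar proteins and regulators include Ncl (nucleolin, which binds the precursor and ribosomal DNA chromatin), Npm1 (nucleophosmin, a chaperone that holds the granular layer of the nucleolus together), Nolc1 (a chaperone of small nucleolar particles), the helicase Ddx21, the regulator Mybbp1a and the GTPase Gnl3 (nucleostemin). None of these 6 passed the test in any comparison. Their median was -0.14 in DC minus CC, 0.26 in RC minus DC and 0.12 in RC minus CC.

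Ncl read 10.32, 10.30, 9.98 and 9.84 on CC 1 to CC 4, 10.09, 9.78, 10.10 and 9.87 on DC 1 to DC 4, and 10.57, 10.40, 9.81 and 10.45 on RC 1 to RC 4. The groups overlap, CC 1 and CC 2 lie above CC 3 and CC 4, and RC 3 is low while the other RC arrays are above all others measured. The difference was -0.15 ± 0.16 in DC minus CC, with a 95% interval from -0.50 to 0.20, 0.35 ± 0.16 in RC minus DC and 0.20 ± 0.16 in RC minus CC. Without RC 3 the RC minus DC difference of Ncl was 0.51 and passed. Npm1 read 11.06, 10.85, 10.76 and 10.81 on CC 1 to CC 4, 10.62, 10.69, 10.93 and 10.72 on DC 1 to DC 4, and 11.33, 10.90, 10.59 and 11.25 on RC 1 to RC 4. RC holds both the highest and the lowest of these 12 values, so its spread (SD 0.34, n = 4) exceeded every difference between the means of 10.87, 10.74 and 11.02. Npm1 has related gene copies, and another 3 rows of the array name it together with a second symbol and were not used, so its level is less certain than the others.

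Of the others in the group, Ddx21 had the largest DC minus CC difference, -0.34 ± 0.13 (adjusted p = 0.164, limma), with means of 9.33, 8.99 and 9.23 in CC, DC and RC. Gnl3 read 9.76, 9.80 and 9.82 on 3 RC arrays and 9.29 on RC 3, and its RC minus DC difference was 0.33 ± 0.13. Nolc1 and Mybbp1a differed little between DC and CC (-0.04 ± 0.09 and 0.01 ± 0.08).

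RNA polymerase I was represented by its largest subunit Polr1a, its other catalytic subunit Polr1b and Rrn3, the initiation factor that makes the polymerase competent to start. All 3 were below 0 in DC minus CC and above 0 in RC minus DC, and none passed the test. Polr1a read 9.29, 9.30, 9.21 and 9.22 on CC 1 to CC 4, 9.30, 9.01, 9.14 and 9.07 on DC 1 to DC 4, and 9.36, 9.36, 9.29 and 9.39 on RC 1 to RC 4. DC 1 is as high as the CC arrays, and the other DC arrays lie below all CC and RC arrays. Its differences were -0.12 ± 0.07, 0.22 ± 0.07 and 0.09 ± 0.07 in DC minus CC, RC minus DC and RC minus CC.

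Polr1b read 9.14, 9.07, 8.96 and 8.97 on CC 1 to CC 4, 8.96, 8.90, 8.82 and 8.81 on DC 1 to DC 4, and 9.01, 8.96, 8.98 and 9.01 on RC 1 to RC 4. The lowest CC array lies just under DC 1, so the groups overlap at that value alone. Its differences were -0.16 ± 0.06, 0.11 ± 0.06 and -0.04 ± 0.06. Rrn3 read 10.57, 10.32, 10.13 and 10.16 on CC 1 to CC 4, 9.92, 9.99, 10.27 and 9.74 on DC 1 to DC 4, and 10.26, 10.16, 10.02 and 10.23 on RC 1 to RC 4. CC 1 is the highest and DC 4 the lowest, and DC 3 lies among the CC arrays. Its DC minus CC difference was -0.32 ± 0.12 (adjusted p = 0.162, limma) and its RC minus DC difference 0.19 ± 0.12. The other genes with an E-box printed above, Imp4 and Nop2, both differed by -0.20 in DC minus CC and did not pass. The E-box genes not printed differed by -0.33 (Utp4), -0.24 (Utp20), -0.16 (Wdr43), -0.01 (Pes1) and 0.01 (Mybbp1a), and none of them passed. Of 18 other measured genes of the RNA polymerase I apparatus (21 listed), 1 was lower in DC and none higher, against 4.32% and 2.31% of all rows. Taf1d, a subunit of the selectivity factor that recognises the ribosomal DNA promoter, fell by 0.45 ± 0.12 (adjusted p = 0.038, limma). The call for Taf1d was lost without any of CC 1, CC 2, CC 3, CC 4, DC 2, DC 3 or RC 1.

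The box C/D particles hold the methyltransferase Fbl (fibrillarin), the paired scaffold proteins Nop56 and Nop58, and Rrp9, a protein of the U3 particle that starts precursor cleavage. Nop56 passed the test in DC minus CC. It read 11.69, 11.68, 11.69 and 11.67 on CC 1 to CC 4, 11.46, 11.37, 11.45 and 11.37 on DC 1 to DC 4, and 11.49, 11.58, 11.45 and 11.54 on RC 1 to RC 4. The SD of the CC values was 0.01 (n = 4), the smallest of any member in CC, and every DC and RC array lies below all of them. The 95% interval of DC minus CC ran from -0.38 to -0.16. RC minus DC was 0.10 ± 0.05 (adjusted p = 0.494, limma) and RC minus CC -0.17 ± 0.05 (adjusted p = 0.214, limma). The call stayed in each fit that left out 1 array (adjusted p up to 0.027), and was lost without CC 1 and CC 2 (0.075) or without CC 3 and CC 4 (0.055), with differences of -0.27 in both. The listed promoter of Nop56, whose 250 bases before the gene start (chr2:130274162-130274411, plus strand, GRCm38.p6) have a GC content of 65.2%, held neither the E-box nor the ETS-type motif.

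Fbl read 9.68, 9.69, 9.47 and 9.50 on CC 1 to CC 4, 9.55, 9.31, 9.55 and 9.50 on DC 1 to DC 4, and 9.68, 9.58, 9.55 and 9.62 on RC 1 to RC 4. DC 2 is the lowest, and the other DC arrays and all RC arrays lie within the range of CC. Its differences were -0.11 ± 0.07, 0.13 ± 0.07 and 0.02 ± 0.07, and a second row of the gene gave 0.12, -0.03 and 0.10, so no direction can be read for Fbl. Nop58 had the largest DC minus CC difference of all members, -0.55 ± 0.19, and the largest SD in each condition (0.24, 0.27 and 0.39), and it did not pass (adjusted p = 0.127, limma). It read 9.61, 9.54, 9.15 and 9.16 on CC 1 to CC 4, 9.16, 8.52, 8.87 and 8.73 on DC 1 to DC 4, and 9.43, 9.37, 8.66 and 9.49 on RC 1 to RC 4. CC 1 and CC 2 lie above CC 3 and CC 4, DC 1 is as high as CC 3 and CC 4, and RC 3 reads like the DC arrays. Rrp9 differed by -0.10 ± 0.06.

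The box H/ACA particles hold, among other proteins, the pseudouridine synthase Dkc1 (dyskerin) with Nhp2 and Gar1, which are shared with telomerase. None of the 3 passed the test. Dkc1 had the smallest p of them in DC minus CC. It read 8.44, 8.40, 8.10 and 8.01 on CC 1 to CC 4, 8.03, 7.61, 8.02 and 7.59 on DC 1 to DC 4, and 8.35, 8.08, 8.10 and 8.28 on RC 1 to RC 4. DC 2 and DC 4 are far below all other arrays, DC 1 and DC 3 lie just above the lowest CC array, and all RC arrays lie above all DC arrays. The differences were -0.43 ± 0.13 (adjusted p = 0.078, limma), 0.39 ± 0.13 (adjusted p = 0.195, limma) and -0.04 ± 0.13. Nhp2 differed by -0.12 ± 0.07 in DC minus CC and by 0.18 ± 0.07 in RC minus DC, and Gar1 by 0.01 ± 0.08 and 0.12 ± 0.08. Among 11 other measured proteins and assembly factors of small nucleolar particles (13 listed), none passed in DC minus CC, against 6.64% of all rows. In RC against DC 1 of them was lower and none higher, against 1.18% and 1.45% of all rows. It was Ruvbl2, a helicase of the complex that assembles box C/D particles, which read 9.46, 9.67 and 9.39 on average in CC, DC and RC. Ruvbl2 fell by 0.28 ± 0.06 in RC against DC (adjusted p = 0.034, limma), against the direction of most members. That call was lost in 10 of the 12 fits that left out 1 array.

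**Figure D3:**
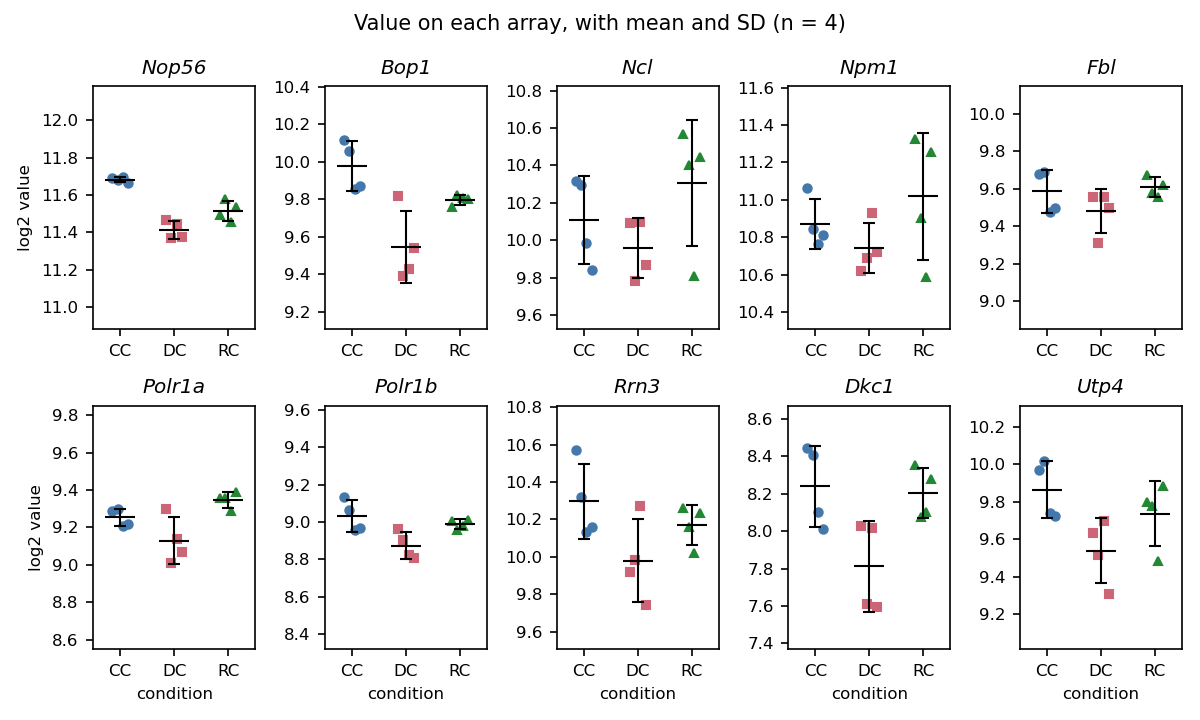
Log2 value on each array (points) with the mean and SD of each condition (bars, n = 4) for 10 genes, with the same height of axis in every panel. The 4 CC values of Nop56 lie together at 11.67 to 11.69 above all others, Bop1 runs from 9.39 to 9.82 in DC, and in Ncl and Npm1 the lowest RC point is RC 3.

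Among the small subunit factors, Utp4, Utp15, Utp20, Wdr43 and Nop14 belong to the processome that assembles on the precursor, Imp4 binds U3, Noc4l partners Nop14, Bysl and Rrp12 act on the later particle, and Nob1 makes the final cut of the small subunit RNA. All 10 were below 0 in DC minus CC (median -0.17) and all 10 above 0 in RC minus DC (median 0.17), and none passed the test. Utp4 had the smallest p in DC minus CC. It read 9.97, 10.02, 9.74 and 9.73 on CC 1 to CC 4, 9.63, 9.51, 9.70 and 9.31 on DC 1 to DC 4, and 9.80, 9.78, 9.48 and 9.89 on RC 1 to RC 4. All DC arrays are below all CC arrays, with DC 3 just under CC 4, and RC 3 reads like a DC array. The difference was -0.33 ± 0.11 (adjusted p = 0.116, limma) in DC minus CC and 0.20 ± 0.11 in RC minus DC.

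Bysl (-0.30 ± 0.10), Utp20 (-0.24 ± 0.11), Imp4 (-0.20 ± 0.09) and Rrp12 (-0.18 ± 0.06) followed in size in DC minus CC. Nob1 had means of 9.77, 9.77 and 9.78 in CC, DC and RC. Utp15 had the highest RC minus CC difference of all members, 0.24 ± 0.12 (adjusted p = 0.582, limma), from 8.37 in CC, 8.34 in DC and 8.61 in RC. Of 43 other measured small subunit factors (48 listed), 2 were lower in DC and 2 higher in RC than in DC. The shares of all rows were 4.32% and 1.45%. The GTPase-related factor Tsr1 fell by 0.35 ± 0.09 (adjusted p = 0.043) and rose by 0.41 ± 0.09 (adjusted p = 0.039, both by limma). The processome protein Wdr46 fell by 0.33 ± 0.09 (adjusted p = 0.045), and Dcaf13 rose by 0.41 ± 0.10 in RC against DC (adjusted p = 0.042, both by limma). The calls of Tsr1 and Dcaf13 were each lost in 10 of 12 fits without 1 array, and that of Wdr46 in 9.

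The large subunit factors include the PeBoW complex of Pes1, Bop1 and Wdr12, the RNA methyltransferase Nop2, the assembly factors Nop16, Nip7, Rrs1 and Ebna1bp2, and the helicase Ddx18. Of the 9 measured, Bop1 passed the test in DC minus CC. It read 10.12, 10.06, 9.85 and 9.87 on CC 1 to CC 4, 9.82, 9.39, 9.43 and 9.54 on DC 1 to DC 4, and 9.76, 9.82, 9.81 and 9.80 on RC 1 to RC 4. All DC arrays lie below all CC arrays, with DC 1 close to CC 3, and the RC arrays sit together (SD 0.03, n = 4) between the means of CC and DC. The 95% interval of DC minus CC ran from -0.63 to -0.23, RC minus DC was 0.25 ± 0.09 (adjusted p = 0.26, limma) and RC minus CC -0.18 ± 0.09. The call was lost without CC 1 (adjusted p = 0.0531) or DC 2 (0.0535), and without CC 1 and CC 2 together the difference was -0.32 (0.215).

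The partners of Bop1 differed from it in size. Wdr12 had means of 8.71, 8.50 and 8.76 in CC, DC and RC, a difference of -0.20 ± 0.07 in DC minus CC and one of 0.26 ± 0.07 in RC minus DC. A dimmer row of Wdr12 gave -0.27 and 0.34. Pes1 had means of 9.04 in CC and 9.03 in DC, and differences of -0.01 ± 0.12 and -0.02 ± 0.12. Whether the 3 partners differ from each other in their response was not tested. Nop2, Nop16, Nip7 and Ddx18 differed by -0.19 to -0.22 in DC minus CC, Ebna1bp2 by -0.15 ± 0.10, and Rrs1, the dimmest member, by 0.03 ± 0.08.

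Of 50 other measured large subunit factors (53 listed), 4 were lower in DC and none higher, against 4.32% and 2.31% of all rows. Pa2g4, a factor on the maturing large subunit that is also known as an ErbB3-binding protein, fell by 0.56 ± 0.13 (adjusted p = 0.021), and Urb2 fell by 0.37 ± 0.09 (adjusted p = 0.025, both by limma). Ftsj3, an RNA methyltransferase, fell by 0.35 ± 0.09 (adjusted p = 0.038, limma). The fourth was Pelp1 (-0.25 ± 0.07), named because the count is small. Among 16 measured exosome and trimming genes (18 listed), 1 was lower in DC and 1 higher in RC than in DC, against 4.32% and 1.45% of all rows. In both comparisons this was Exosc2, a cap subunit of the RNA exosome. It fell by 0.37 ± 0.06 in DC (adjusted p = 0.0029) and rose by 0.29 ± 0.06 in RC against DC (adjusted p = 0.027, both by limma). Its DC call stayed in all 12 fits without 1 array, while its RC call was lost in 6, and those of Pa2g4, Urb2 and Ftsj3 were lost in 4, 5 and 10.

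Of the other 138 measured genes of the pathway, 8 were lower and none higher in DC minus CC, against 4.32% and 2.31% of all rows. The share of lower genes was thus near the background. Their median was -0.11, against 0.04 over all rows, and 119 (86.2%) were below 0, against 39.7% of rows. An unadjusted p under 0.05 was reached by 27.5% of them, against 20.6% of rows. The lists differed in their medians, from -0.17 for the other small subunit factors and -0.15 for the exosome and trimming genes to -0.06 for the RNA polymerase I genes and -0.02 for the particle proteins. In RC minus DC 3 were higher and 1 lower, against 1.45% and 1.18% of all rows, with a median of 0.11. In RC minus CC none passed the test, against 0.796% of all rows, and the median was -0.01. An unadjusted p under 0.05 was reached there by 5 (3.62%, against 9.06% of rows).

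**Figure D4:**
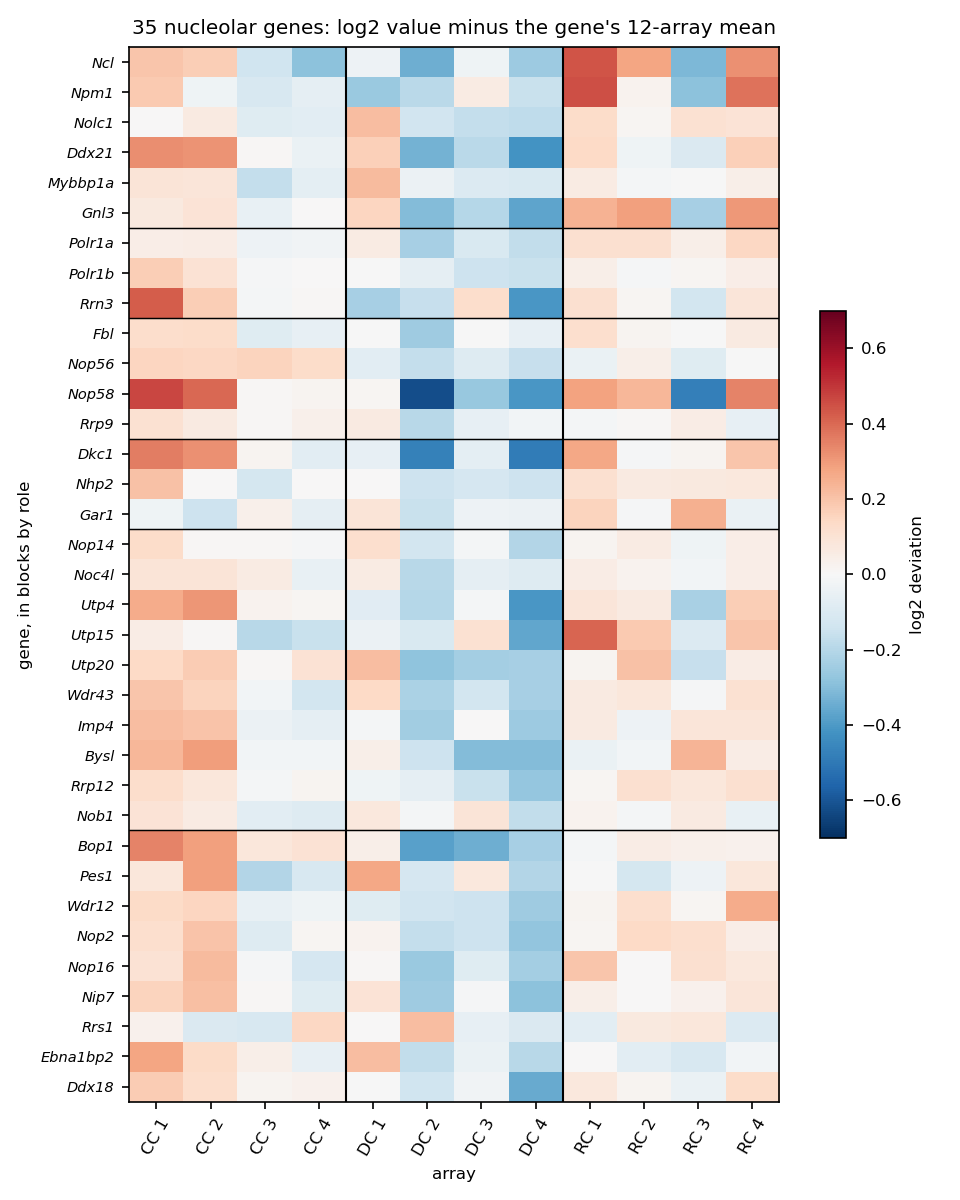
Log2 value of each of the 35 genes (rows, in blocks by role) on each of the 12 arrays (columns), minus the gene's mean over the 12 arrays, in colour. Columns DC 2 and DC 4 are mostly blue, holding the lowest value of 11 and 21 genes, and CC 1 and CC 2 are mostly red, holding the highest of 15 and 8, while Ncl, Npm1 and Gnl3 are high on RC 1 and RC 4 and low on RC 3.

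The extreme values of the members gathered on a few arrays. The lowest of a gene's 12 values was on DC 4 for 21 members and on DC 2 for 11, against 9.78% and 8.81% of all rows. The highest was on CC 1 for 15 members and on CC 2 for 8, against 7.86% and 9.91% of rows. When any single array was left out, the member median stayed between -0.23 and -0.12 in DC minus CC, with 29 to 34 members below 0, and between 0.13 and 0.23 in RC minus DC. With DC 2, DC 4 and RC 3 left out, the median was -0.08 in DC minus CC, with 28 of 35 below 0, and 0.10 in RC minus DC. In that fit 1 member, Nop56, passed in DC minus CC (2.86%, against 3.16% of rows lower). With DC 1 left out, 6 members passed in DC minus CC, namely Ddx21, Nop56, Dkc1, Utp20, Bysl and Bop1, or 17.1% against 5.24% of rows lower. The SD over the 4 arrays of a condition had a median over members of 0.12 in CC, 0.15 in DC and 0.06 in RC, against 0.10, 0.13 and 0.14 over all rows.

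Several members carry genes of small nucleolar RNAs inside their own transcription units, and such guide RNAs are usually cut out of the host's introns. RefSeq names 10 such genes in 5 members, and 4 of them had a row. Snord57, inside Nop56, had CC arrays at 12.52 ± 0.24 (SD, n = 4), DC arrays at 12.47 ± 0.17 and RC arrays at 12.39 ± 0.22, and its DC minus CC difference was -0.06, beside -0.27 for Nop56. Snora75 and Snord82, inside Ncl, differed by -0.12 ± 0.10 and -0.09 ± 0.22 (moderated standard errors) between DC and CC, and Snord53, inside Wdr43, by -0.21 ± 0.32. None of the 4 passed the test in any comparison.

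Genes upstream of ribosome production varied. Myc itself had means of 8.48, 8.49 and 8.40 in CC, DC and RC and did not pass (DC minus CC 0.01 ± 0.13). Of 11 measured genes of the Myc and Max network, 2 were higher in DC, against 2.31% of all rows. Both encode Max partners known as repressors. Mxi1 rose by 0.45 ± 0.10 (adjusted p = 0.014) and Mnt by 0.29 ± 0.08 (adjusted p = 0.041, both by limma). The call for Mnt was lost in 8 of 12 fits without 1 array.

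Of 10 measured genes of growth signalling and ribosomal DNA control, 1 was higher in DC and 2 lower, against 2.31% and 4.32% of all rows. In RC against DC 1 was lower, against 1.18% of rows, and in RC against CC 1 was lower, against 0.675%. Ddit4, an inhibitor of the growth kinase mTOR that is known to be induced by low oxygen, rose by 0.94 ± 0.14 in DC (adjusted p = 0.0013) and fell by 0.93 ± 0.14 in RC against DC (adjusted p = 0.0031, both by limma). Mdm2, whose protein is bound by free ribosomal proteins, fell by 0.53 ± 0.07 in DC and was still lower in RC than in CC, by -0.51 ± 0.07 (adjusted p = 0.00042 and 0.0058, limma). Tsc2, another brake on mTOR, fell by 0.26 ± 0.07 (adjusted p = 0.034, limma), and lost the call in 8 of 12 fits without 1 array. In the proliferation list, 3 of 15 measured genes were lower in DC, against 4.32% of all rows. They were Rrm2 (-0.95 ± 0.12), Tyms (-0.52 ± 0.09) and Ccna2 (-0.45 ± 0.10, lost without CC 1, CC 2 or DC 2). All 15 were below 0, against 39.7% of rows, with a median of -0.23. In RC against DC, 2 of the 15 were higher, against 1.45% of all rows. Rrm2 rose by 0.75 ± 0.12 and Cdk1 by 0.49 ± 0.11, the latter lost in 5 of 12 fits without 1 array. The proliferation genes moved with the members, and their part in the members' differences was not tested.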

How the data were processed

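Total RNA (500 ng per sample, per the labels' protocols) had been labelled with biotin and hybridised to arrays of the Affymetrix Mouse Gene ST type. The authors' deposited table holds 1 log2 value per row (probe set) and array, for 35556 rows. Software, normalization and genome build: not given in the sources used here. The log2 scale was inferred from the range of values, 3.69 to 14.47. No depth or background was given, so the number of arrays limits the precision. Rows were named through the platform annotation (21789 with 1 symbol, 1621 with several, 12146 with none), and all 35 measured members matched a RefSeq gene of the same symbol on GRCm38.p6. No member's row repeats another row.

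The fit used limma 3.58.1 in R 4.3.3 (lmFit with a mean for each condition over the 12 arrays, contrasts.fit and eBayes) and had 9 residual degrees of freedom. Two-sided p-values were adjusted with the Benjamini-Hochberg method across every row tested in a comparison, and the threshold was 0.05. "Passed", "rose" and "fell" mean an adjusted p under that threshold. The error after a difference is the moderated standard error of limma, and the code was tested on simulated data.

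Values on every array are given for called members, for Ncl, Npm1, Fbl, Polr1a, Polr1b and Rrn3, and for the member with the smallest p in DC minus CC of a role without any of these. Nop58 was added after its values were seen. Of each pathway, upstream, proliferation and beta cell list, called genes were named, at most 3 per comparison, and Myc always. The members and lists were chosen with earlier results of these data known. The alternatives were other scalings, covariates, weights, filters, the replicate block and arrays left out. The labels do not say whether replicate numbers pair the samples, and the main fit treated the arrays as unpaired.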

Additional observations from a re-analysis of the deposited data

Results flagged for a closer look

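In 5 of the 108 groups of 4 arrays tested (each of the 35 members, and their mean, in 3 conditions), 1 array lay far from the other 3 by Dixon's test, and chance alone gives about 1 in 20. Nop14 read 8.88 on CC 1, against 8.75 to 8.76 on the other CC arrays. Nolc1 read 10.17 on DC 1, against 9.77 to 9.82, and Utp20 read 9.54 on DC 1, against 9.04 to 9.10. On RC 3, Gnl3 read 9.29, against 9.76 to 9.82, and Nop58 read 8.66, against 9.37 to 9.49.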

How the results depend on the processing

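The counts of called members that changed are named here. A member median is named where it moved by at least 0.1005, the pooled SD of the member mean between arrays of a condition. Lower members in DC against CC numbered 4 with array weights (against 8.43% of all rows), 1 with DC 2, DC 4 and RC 3 left out (3.16%) and 0 with CC 1 and CC 2 left out (1.8%). They numbered 3, with Dkc1 added, both without dim rows, those not above the median of all values (9.86%), and among rows with 1 symbol (7.59%). Without CC 3 and CC 4 they were Dkc1 and Bop1 (3.12%). When single arrays were left out they numbered 1 to 6, where 4 were called without RC 3 (6.68%). The member median was -0.26 with CC 3 and CC 4 left out. Higher members in RC against DC numbered 1 with quantile normalization (Polr1a, 1.73% of rows), 4 with the interquartile range as a covariate (Polr1a, Nop58, Dkc1 and Wdr12, 2.59%), 17 with array weights (10.6%) and 0 to 5 when single arrays were left out. In RC against CC the covariate gave 2 higher (Ncl and Utp15, 0.765%), and array weights gave 4 higher (Ncl, Npm1, Gnl3 and Utp15, 4.15%) and 1 lower (Nop56, 3.77%). Members below 0 in RC against DC numbered 5 with quantile normalization, with the covariate or without DC 4, 8 without DC 2, DC 4 and RC 3, and 1 with array weights, without dim rows or without DC 1 or RC 2, and in RC against CC 7 with array weights. The cause was not tested.

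Differences that turned sign passed neither in the main fit nor in the fit where they turned. Ncl in RC against CC, which is among them, passed with the covariate and with array weights. In DC against CC, Ncl was 0.13 and Npm1 0.046 with the covariate, Ncl was 0.048 without CC 1 and CC 2, and Fbl was 0.0094 with the mean of its rows and 0.12 with its dimmer row, an alternative chosen after seeing the data, which also gave -0.025 in RC against DC. In RC against CC, Fbl was -0.025 with array medians subtracted, -0.077 without CC 3 and CC 4, and -0.015 to 0.056 when single arrays were left out, and Ncl was -0.00058 without CC 3 and CC 4. Dkc1 was 0.11 with the covariate, 0.14 with array weights, 0.15 without CC 1 and CC 2 and -0.11 to 0.031 when single arrays were left out. With array weights and without CC 1 and CC 2, in this order, Polr1b was 0.0096 and 0.026, Rrn3 0.022 and 0.023, and Utp4 0.040 and 0.0032.

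The labels do not say whether the replicate numbers pair the samples. Correlations of same-numbered deviations ran from -0.36 to 0.47, and such mixed values cannot decide it. With the replicate number as a block, 2 members were lower in DC against CC (5.71%, against 3.54% of rows). They were Nop56 and Bop1, with adjusted p-values of 0.033 and 0.023 by limma. In RC against DC 0 passed, against 1.14% of rows higher and 0.796% lower. In RC against CC 0 passed, against 0.0281% and 0.163%. The medians were -0.16, 0.17 and -0.01. Detection was not measured here, and 4 arrays per condition limit the size of difference that can pass.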
